A study of Homo sapiens with 5 samples.

Results

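The siNT and siL2 libraries are the control siRNA samples of a series of 5 RNA-seq libraries from COLO 320DM, a human colorectal adenocarcinoma cell line. They were taken by their titles, which makes 2 of 5 samples, and were compared with each other gene by gene. Per the series text both siRNAs are non-silencing controls, and the study asked how the deubiquitinase USP17 acts on beta-catenin in colorectal cancer. The siIDT, sino4 and siSMPLT libraries, taken as the USP17 siRNA group by elimination, served here as a scale of library spread and to show which control departs. All 5 samples are the same cell line with an siRNA transfected, and no dose, time or untransfected sample is given in the sources used here. Each siRNA had 1 library, so no difference below has a replicate check and no p-value is given.

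A small interfering RNA is a short duplex whose guide strand is loaded into an Argonaute protein and directs cleavage of a fully matched transcript. The same guide can also pair through its seed, a short stretch near its 5′ end, with sites in the 3′ untranslated region (UTR) of other transcripts, which are then lowered to a smaller extent, as with a microRNA. A control siRNA is designed to match no transcript fully, and its seed still meets matching sites in many genes. Cells can also answer transfection and amino acid shortage through the integrated stress response, in which translation of the transcription factor ATF4 goes up and its target genes for amino acid uptake and synthesis follow.

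The siNT library held 36276143 reads in genes and the siL2 library 34320214, against 31704821 to 32259474 in the USP17 siRNA libraries. Levels are given as CPM, the reads on a gene's own strand relative to a library size scaled by TMM, a factor that aligns the bulk of genes between libraries. Mitochondrially encoded genes took 2.73% of gene reads in siNT and 3.27% in siL2, and 2.90% to 3.18% in the others. The colon factor CDX2 stood at 2001 CPM in siNT and 2098 CPM in siL2, while the colon markers CEACAM5 and MUC2 had 0 reads in all 5 libraries. Of the 15 colon epithelium markers, 7 had under 10 reads in every library. Among markers of other cell types, the B cell marker MS4A1 had 0 reads in all 5 libraries, and the summed level of 10 leukocyte markers was 57.8 CPM in siNT and 46.3 CPM in siL2, nearly all of it PTPRC. For 12 fibroblast and endothelial markers the sums were 60.4 and 52.6 CPM. Whether these differences play a part in the results below was not tested.

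The controls differed at many genes. Of 60651 genes listed, 15468 had at least 10 reads in both controls and were compared. The ratio of CPM was at least 2-fold higher in siNT for 215 genes (1.39%) and at least 2-fold lower for 186 (1.20%). At 1.5-fold, 891 genes were higher in siNT (5.76%) and 813 lower (5.26%). The log2 ratio of siNT over siL2 had a median of -0.001 and an SD of 0.379 over genes. Genes of low level make up most of both sides, and more of the lower one. At a mean level of at least 5 CPM, 59 genes were 2-fold higher in siNT and 16 lower.

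Between the controls the SD was 0.372 over the 14922 genes with at least 10 reads in all 5 libraries, and 1558 of those genes lay 1.5-fold or more apart. In pairs of USP17 siRNA libraries the SD was 0.240 to 0.282 and the genes so far apart numbered 571 to 816. A control and a USP17 siRNA library gave 0.389 to 0.459. Counting error is small at high levels. For genes of 100 CPM and above, where counting alone gives an SD of 0.0261, the controls' SD was 0.227, against 0.102 to 0.154 in pairs of USP17 siRNA libraries. In that range 71 genes were 1.5-fold apart between the controls and 0 to 10 in those pairs.

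**Figure D1:**
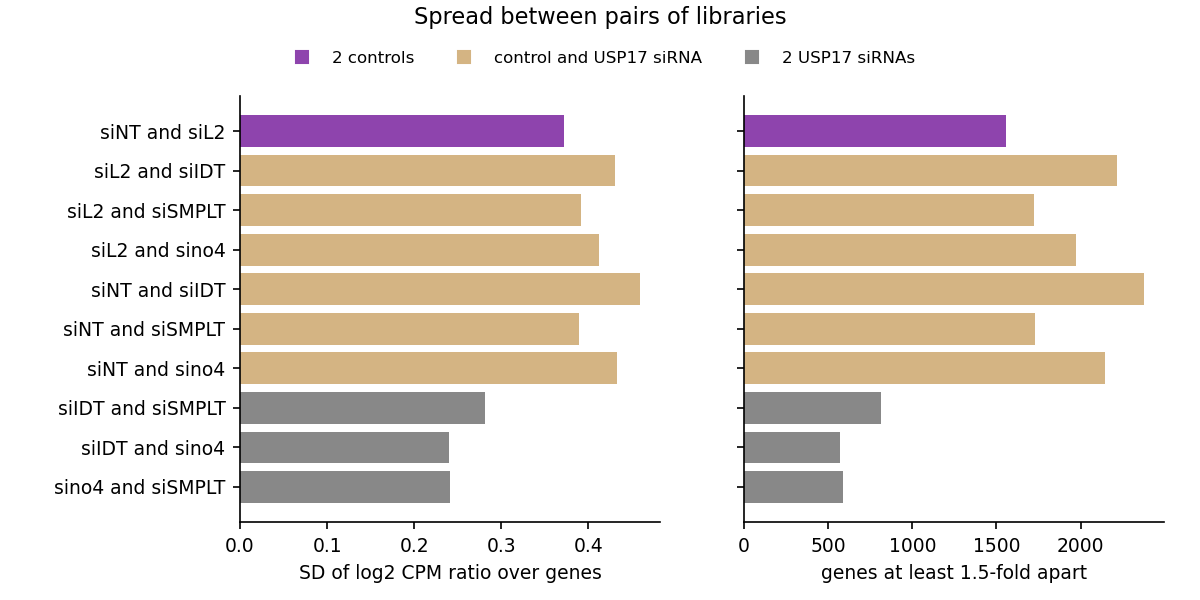
The SD over genes of the log2 CPM ratio (left) and the number of genes at least 1.5-fold apart (right) for each of the 10 pairs of libraries, over 14922 genes. The bar for siNT and siL2 (0.372, 1558 genes) is longer than those of the 3 pairs of USP17 siRNA libraries (0.240 to 0.282, 571 to 816 genes) and shorter than those of a control with a USP17 siRNA library.

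The USP17 siRNA libraries were used to show which control departs at a gene. They are a treated group and not a neutral baseline. Whether a departure also reflects that treatment was not tested. A control was taken to stand apart where its level was at least 1.5-fold above or below the whole range of those 3 libraries. Of the 401 genes 2-fold apart, siNT alone stood apart at 150, siL2 alone at 112, both on opposite sides at 8, both on the same side at 8, and neither at 123. Both controls thus departed from the range of those libraries. Over all levels siNT alone was high at 78 genes and low at 72, and siL2 alone was low at 65 and high at 47. At a mean of 5 CPM and above, siNT alone stood apart at 24 genes, high at 16 and low at 8. There siL2 alone stood apart at 35 genes, and it was the low library at 30 of them.

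**Figure D2:**
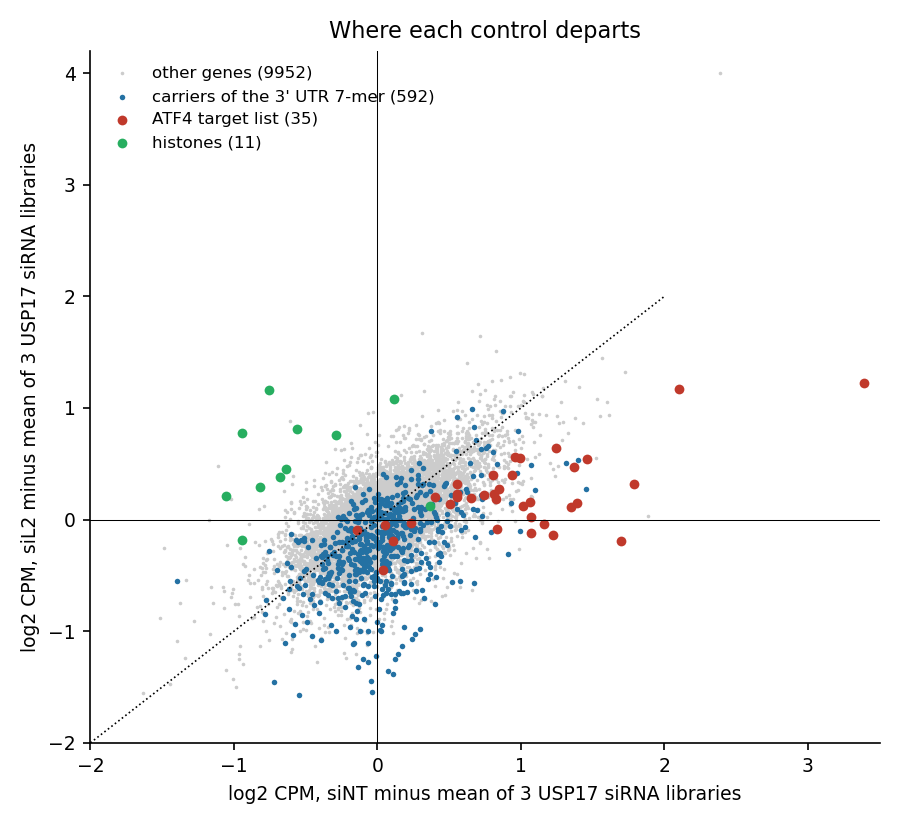
Each point is a gene with a mean of at least 5 CPM in the controls, placed by the log2 CPM difference of siNT (x) and siL2 (y) from the mean of the 3 USP17 siRNA libraries, which both axes share; the dotted line marks equal controls. The 35 ATF4 list genes lie to the right (median 0.94 in siNT, 0.19 in siL2), the 11 histones to the upper left (-0.68 and 0.46), and the 592 carriers of a 3′ UTR motif described below lie low in siL2 (median -0.22) with a siNT median of 0.02.

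The genes lowest in siL2 have varied functions. USP28, a deubiquitinase known to stabilise MYC, lies on chromosome 11 from 113797874 to 113875570 (GRCh38). It measured 75.3 CPM in siNT and 26.5 CPM in siL2, and 81.2, 76.8 and 74.3 CPM in siIDT, sino4 and siSMPLT. The siL2 library was low and siNT lay within the range of the others. The ratio was 2.84 (95% interval 2.63 to 3.06; these intervals, exact for a ratio of read counts, cover counting error only). TIMM17A, a subunit of the translocase of the mitochondrial inner membrane, lies on chromosome 1 from 201955491 to 201970661 and had 98.7 CPM in siNT and 35.1 CPM in siL2, with 87.5, 94.7 and 92.3 CPM in the others. Its ratio was 2.82 (2.64 to 3.01). CDKN2A, which encodes cell cycle inhibitors, had 22.6 CPM in siNT, 8.41 CPM in siL2 and 20.2, 23.1 and 21.4 CPM in the others, a ratio of 2.69 (2.35 to 3.09). In these genes too, siL2 was the single low library.

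The same shape held for CCSAP, a protein of centrioles and the spindle (39.8 CPM in siNT, 15.1 CPM in siL2, and 38.3 to 43.5 CPM in the others), and for POLR1H, a subunit of RNA polymerase I (21.4, 8.26, and 18.5 to 20.8 CPM). TCEA1, a transcription elongation factor, had 88.7 CPM in siNT and 34.8 CPM in siL2, with 76.4 to 85.8 CPM in the others. PER2, a repressor of the circadian clock, had 23.4 and 9.46 CPM, with 18.9 to 22.8 CPM in the others. RASSF8 (10.1 and 4.09 CPM) and the small GTPase RAB28 (79.8 and 32.8 CPM) completed the 9 genes of this kind among the 15 with the largest ratios at 5 CPM and above.

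All 9 of these genes carry the sequence GATCATC in the 3′ UTR of the transcript searched for the gene, the principal one or, among several, that with the longest 3′ UTR. The sites of 8 of them are shown to let the shared letters be seen, each as 29 bases of GRCh38 read 5′ to 3′ on the transcript's strand, with the 7-base sequence (7-mer) in capitals. Apart from the capitals the neighbouring bases differ from gene to gene. On the minus strand lie the sites of USP28 (chr11:113798533-113798561), CDKN2A (chr9:21968173-21968201), CCSAP (chr1:229324565-229324593), PER2 (chr2:238244339-238244367) and RAB28 (chr4:13368198-13368226). On the plus strand lie those of POLR1H (chr6:30064805-30064833) and RASSF8 (chr12:26071197-26071225), and TIMM17A holds a pair there (chr1:201969847-201969875 and chr1:201970198-201970226).
USP28: acttgactgaaGATCATCcattaatagtt
TIMM17A, first site: cagtgaaatatGATCATCatctccttgcg
TIMM17A, next site: tcttgattcctGATCATCagaaatttcac
CDKN2A: cgggaaacttaGATCATCagtcaccgaag
CCSAP: tctctttcagtGATCATCtaggcagttat
POLR1H: gaagagaatcaGATCATCatgtggggatt
RASSF8: cgttttcatagGATCATCtgaagatactt
PER2: tgacttaatagGATCATCttgtgaatttg
RAB28: ctccaagtcttGATCATCagccaggattt

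Carriers of the 7-mer as a group were shifted, with 510 of 665 (76.7%) above 0 against 50.7% of genes with no site. The 7-mer came from earlier results of these same data, so the values and ranks given for it describe it and are no independent check. Of 12163 compared genes with an annotated 3′ UTR, 665 (5.47%) hold GATCATC. Their median log2 ratio of siNT over siL2 was 0.21, against 0.00 in the genes without it, a difference of 0.209. Among 13781 7-mers with at least 200 carriers this difference ranked 1 from the highest; the next was 0.102, for ATCATCT, which shares 6 of its bases, and the 1st and 99th percentiles were -0.024 and 0.054. In a linear fit with UTR length, GC content and level as covariates, the carriers' shift was 0.236. That is an adjusted difference of means, so it is not directly comparable with the difference of medians. Of carriers, 18.9% were at least 1.5-fold higher in siNT and 1.05% at least 1.5-fold lower, against 4.91% and 3.37% of genes with no site.

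The shift lay in siL2. Relative to the median of the USP17 siRNA libraries, carriers differed from other genes by -0.248 in siL2, the lowest of all 13781 7-mers, and by -0.009 in siNT, which ranked 5037 from the lowest. Both of these values use the same USP17 siRNA libraries as reference. When each USP17 siRNA library was set against the other 2, the carriers' difference was 0.000, -0.009 and 0.004 in siIDT, sino4 and siSMPLT. The lowest 7-mer in siNT against the same median was TTAAACG, at -0.084.

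Carriers differed among themselves by the position of the site and the length of the 3′ UTR. The 161 genes with 1 site within the first 500 bases of the 3′ UTR had a median log2 ratio of 0.33, and 29.2% of them were 1.5-fold higher in siNT. The 459 genes with 1 site farther in had a median of 0.18 and a share of 14.6%. In 3′ UTRs shorter than 1000 bases the median was 0.29 (78 genes), and in those of 3000 bases or more it was 0.15 (327 genes). Genes with 2 sites (38) had a median of 0.22 and 68.4% above 0, against 0.21 and 76.9% for 1 site, while the 7 genes with 3 or more sites had a median of 0.43. By the base after the site the medians were 0.24 (A), 0.18 (C), 0.15 (G) and 0.21 (T), and by the base before it 0.20 (A), 0.21 (C), 0.21 (G) and 0.27 (T). Partial matches had smaller values: 1088 genes with ATCATCT but not GATCATC had a median of 0.07, and 1050 with TGATCAT but not GATCATC a median of 0.05. The sequence of the siL2 siRNA is not given in the sources used here, so whether its seed matches this 7-mer was not tested.

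**Figure D3:**
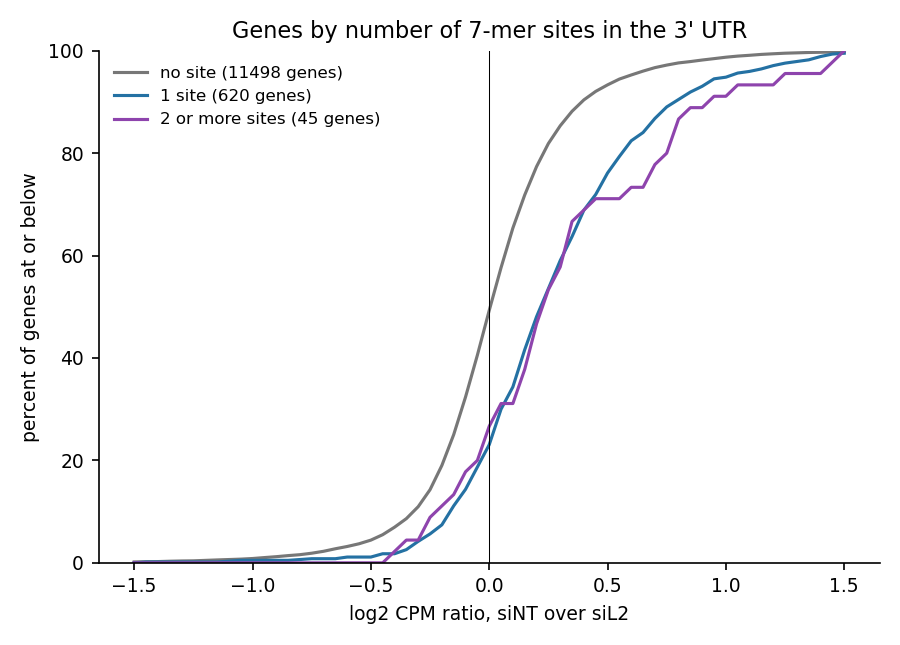
Percent of genes at or below each log2 CPM ratio of siNT over siL2, for genes with no site (11498), 1 site (620) or 2 or more sites (45) of the 7-mer in the 3′ UTR. The curves for carriers lie to the right of the curve for genes with no site over most of the range, with medians of 0.21 for 1 site and 0.00 for no site.

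At 5 CPM and above, 30 genes were 2-fold lower in siL2 with siL2 alone standing apart, and 21 of them (70%) hold the 7-mer, against 5.94% of all genes searched at that level. As the 7-mer came from earlier results of these libraries, this share is no independent check. Besides the genes named above these 21 include XRN2, a nuclear exoribonuclease (247 CPM in siNT, 111 in siL2), RDX, which encodes the membrane linker radixin (222.7 and 96.1 CPM), and MXI1, a MAX partner that opposes MYC (142.3 and 69.9 CPM). USP18, an interferon-stimulated isopeptidase, had 8.78 and 3.97 CPM. XRN2, RDX and MXI1 were chosen after their values were seen. The 9 genes of the 30 without the 7-mer had log2 ratios of 1.01 to 1.15, among them VAPA, a tether of the endoplasmic reticulum (169.7 and 81.9 CPM). Of the 16 genes at which siNT alone stood apart on the high side, 4 hold it (25%).

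Genes of the ATF4 response were higher in siNT. CHAC1, which degrades glutathione, lies on chromosome 15 from 40952962 to 40956519. It measured 14.03 CPM in siNT, 3.12 CPM in siL2 and 1.19, 1.36 and 1.47 CPM in siIDT, sino4 and siSMPLT. Both controls were above the others and siNT was the highest by far, with a ratio of 4.49 over siL2 (3.64 to 5.59). ASNS, the asparagine synthetase, had 5.59 CPM in siNT, 1.69 CPM in siL2 and 1.07 to 1.33 CPM in the others, a ratio of 3.30 (2.45 to 4.50). These counts hold only a small part of the ASNS reads: the authors' RSEM values, which include reads that several genes share, were 208 TPM in siNT, 79.6 TPM in siL2 and 56.2 to 67.9 TPM in the others, and the log2 ratio was 1.37 from RSEM expected counts against 1.72 here. ATF3, a stress-induced transcription factor, had 19.1 CPM in siNT and 6.89 CPM in siL2, with 4.83 to 6.84 CPM in the others. The cystine transporter SLC7A11 had 235.8 and 99.5 CPM, with 80.2 to 97.4 CPM in the others. In each of these genes siNT was the single library far from the rest, apart from the smaller elevation of CHAC1 in siL2.

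ATF4 itself stood at 396.6 CPM in siNT, 264.3 CPM in siL2 and 205.8 to 245.8 CPM in the others, a log2 ratio of 0.59 (1.46- to 1.54-fold). DDIT3, the proapoptotic partner of ATF4 also known as CHOP, had 30.6 and 12.96 CPM, with 11.3 to 13.2 CPM in the others. TRIB3, a pseudokinase that feeds back on ATF4, had 20.4 and 15.4 CPM, with 11.2 to 12.1 CPM in the others. Further members with ratios above 2 were VLDLR, a lipoprotein receptor (10.2 and 2.74 CPM), and CTH, the cystathionine lyase that makes cysteine (38.9 and 15.1 CPM). The others were PCK2, the mitochondrial phosphoenolpyruvate carboxykinase (140.5 and 61.1 CPM), DDIT4, an inhibitor of mTORC1 (109.2 and 48.0 CPM), and SLC1A4 (24.3 and 11.7 CPM). CTH holds the 7-mer of the siL2-low genes, yet its siL2 level lay within the 14.9 to 18.6 CPM of the USP17 siRNA libraries.

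Of the 42 genes on the list of ATF4 targets and amino acid supply, 38 were compared. Of these, 19 were at least 1.5-fold higher in siNT and 0 lower, against 5.76% and 5.26% of all genes compared, and 10 were at least 2-fold higher. Their median log2 ratio was 0.58, against -0.001 over all genes, and 36 of 38 were above 0. The 2 below 0 were ALDH1L2 (-0.08) and CBS (-0.05). The siNT library was the highest of all 5 at 34 of 38 members, against 25.5% of all genes, and it stood apart alone at 23 where siL2 did so at 0. Relative to the mean of the USP17 siRNA libraries the list's median was 0.89 in siNT and 0.19 in siL2, and -0.04, -0.03 and 0.05 in siIDT, sino4 and siSMPLT. Of all 38, 1 gene holds the 7-mer.

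The cytosolic aminoacyl-tRNA synthetases, which charge transfer RNAs with amino acids and of which several are ATF4 targets, had a median of 0.18. Of 20 compared, 4 were at least 1.5-fold higher in siNT and 0 lower, against 5.76% and 5.26% of all genes compared. YARS1 had 346.1 CPM in siNT and 216.3 CPM in siL2, AARS1 had 512.4 and 336.0 CPM, KARS1 480.8 and 314.6 CPM, and GARS1 371.2 and 246.0 CPM. FARSA was on the other side at -0.26. Their 17 mitochondrial counterparts, which serve translation inside the organelle, had a median of -0.01, with 0 higher and 1 lower at 1.5-fold.

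A promoter motif was more frequent on the ATF4 list than among all promoters, though most of the list lacked it. The motif TGATGNAA, the core of the element bound by ATF4 with a C/EBP partner, was searched on both strands in RefSeq promoters of GRCh38.p14, from 250 bases before to 50 after the start. It occurred in 6 of 30 promoters of the list (20%) and in 6 of 16 of the cytosolic synthetases (37.5%), against 3.67% of 27305 promoters and 1.68% of the 10881 of genes compared. The 6 on the list were CHAC1, ASNS, ATF3, GOT1, SLC3A2 and SLC7A1. A match is a description of these windows, not a site of binding. Stretches of 60 bases around the match in the 3 of these genes with the largest ratios follow, 5′ to 3′ on the gene's strand with the match in capitals; in CHAC1 it lies on the opposite strand, so its reverse complement is seen. They lie at chr15:40953236-40953295, chr7:97872443-97872502 (minus strand) and chr1:212565190-212565249, and the match begins 209, 68 and 191 bases before the RefSeq start. The stretches of CHAC1 and ASNS lie inside the gene's span in the GENCODE annotation, whose outer start differs from the RefSeq one.
CHAC1: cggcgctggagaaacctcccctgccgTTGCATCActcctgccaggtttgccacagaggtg
ASNS: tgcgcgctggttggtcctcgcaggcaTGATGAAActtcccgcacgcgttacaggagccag
ATF3: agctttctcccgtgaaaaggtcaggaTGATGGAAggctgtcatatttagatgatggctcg

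**Figure D4:**
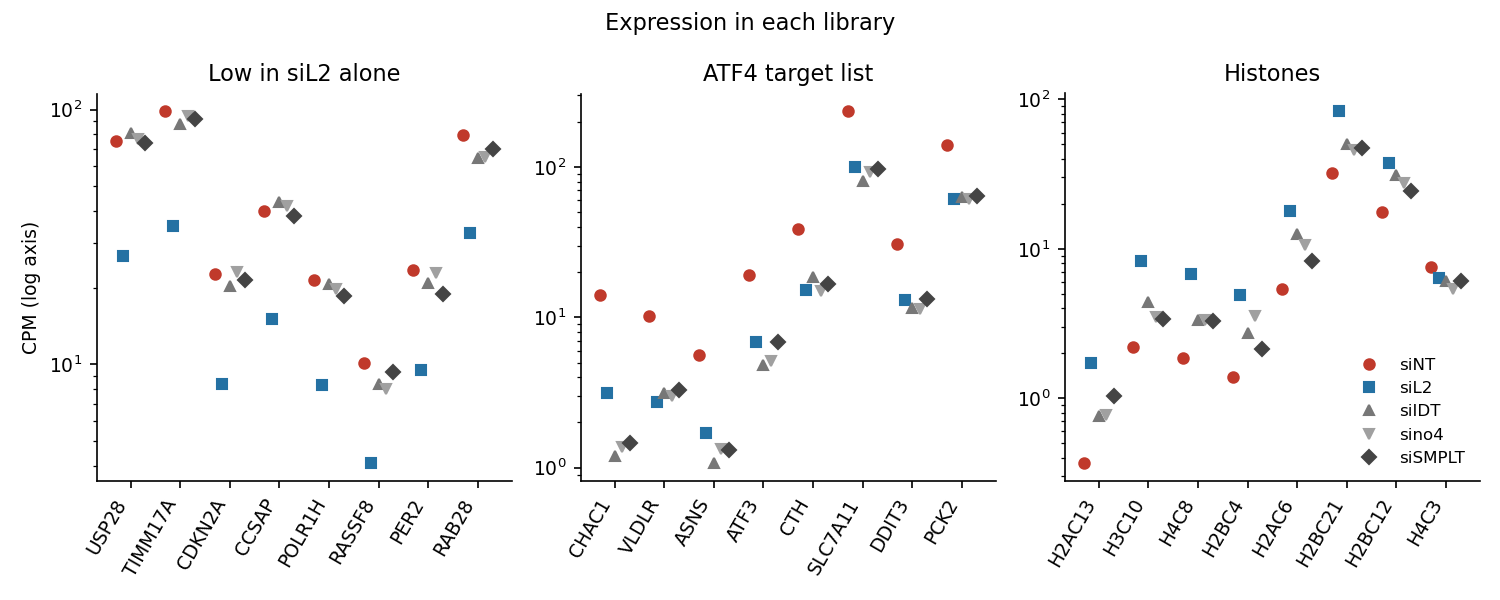
CPM on a log axis in each of the 5 libraries for 8 genes low in siL2 alone (left), 8 genes of the ATF4 list (middle) and 8 replication-dependent histones (right). Circles are siNT, squares siL2 and the grey marks the USP17 siRNA libraries: the square is the low point in the left panel, the circle the high point in the middle, and in 7 of the 8 histones the circle lies below and the square above the rest, H4C3 being the exception.

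Replication-dependent histones were lower in siNT and higher in siL2. These genes supply histones during DNA replication, and most of their transcripts end in a stem-loop in place of a poly(A) tail, so a poly(A)-selected library catches only part of them. H2BC21 lies on chromosome 1 from 149884459 to 149886652 and measured 32.2 CPM in siNT, 83.4 CPM in siL2 and 49.9, 45.6 and 47.1 CPM in siIDT, sino4 and siSMPLT. The USP17 siRNA libraries thus lay between the controls, and siL2 was 2.59-fold above siNT (2.42 to 2.78). H3C10 had 2.202 CPM in siNT, 8.32 CPM in siL2 and 3.37 to 4.37 CPM in the others. H4C8 had 1.86 and 6.77 CPM, with 3.31 to 3.33 CPM in the others. H2AC6 had 5.39 and 17.8 CPM, with 8.34 to 12.6 CPM in the others. At each of these genes the controls lay on either side of the 3 other libraries.

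Of the 54 histones on the list, 32 were compared, and 22 of these had a mean of at least 1 CPM. At 1.5-fold, 22 of 32 were lower in siNT and 0 higher, against 5.26% and 5.76% of all genes, and 15 were lower by 2-fold. The median log2 ratio was -0.97, or -1.07 among those at 1 CPM and above. The siNT library was the lowest of the 5 at 22 of 32 histones and siL2 the highest at 18, against 24.2% and 25.7% of all genes. Relative to the USP17 siRNA mean the medians were -0.60 in siNT and 0.36 in siL2, and between -0.05 and 0.08 in the others. Summed over the list the level was 113.9 CPM in siNT, 251.2 CPM in siL2 and 158.9 to 185.7 CPM in the others. Of the rest, H2BC6 (-0.44) and H1-5 (-0.40) were below 0 and 8 were above 0, with none at 1.5-fold. The most abundant of those 8 was H4C3, at 7.54 CPM in siNT and 6.33 CPM in siL2, and H1-4, a linker histone, had 1.64 and 1.11 CPM. Histone genes of a class are near-identical, and reads that map to several of them were not counted, so the split between single members is uncertain.

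Many, though not all, histone promoters of the H2A and H2B classes hold the octamer ATTTGCAT, which POU-domain factors bind. It was found on either strand in 15 of 29 histone promoters (51.7%), against 1.80% of all promoters. Several of these genes are in head-to-head pairs that share a window. Histones with it had a median log2 ratio of -1.05 and those without it -1.09, so the values were alike with and without it. The stretches around it in 3 of the 15 lowest genes are shown with the octamer in capitals, from chr1:149886695-149886754, chr6:27146871-27146930 and chr6:26216703-26216762, all on the minus strand; it begins 46, 46 and 48 bases before the start.
H2BC21: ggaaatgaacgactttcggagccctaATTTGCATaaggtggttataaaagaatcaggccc
H2BC12: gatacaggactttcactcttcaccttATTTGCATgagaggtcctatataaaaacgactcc
H2BC8: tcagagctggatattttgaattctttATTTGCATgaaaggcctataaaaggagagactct

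The histones were not accompanied by a like difference in other S phase genes. The list of G1/S and replication genes had a median of 0.09. At 1.5-fold, 0 of 30 were higher and 1 lower, against 5.76% and 5.26% of all genes compared. CCNE2, a cyclin of S phase entry, had 10.9 CPM in siNT and 16.9 CPM in siL2, and CDT1, which licenses replication origins, 101.6 and 70.4 CPM. Genes of G2 and mitosis were uniformly but slightly higher in siNT: all 30 were above 0, with a median of 0.36, and 1 passed 1.5-fold. PLK1, a mitotic kinase, had 206.2 CPM in siNT, 141.5 CPM in siL2 and 177.4 to 196.1 CPM in the others. MKI67, a marker of cycling cells, had 532.9, 381.9 and 641.8 to 672.7 CPM. The siL2 library was the lowest of the 5 at 22 of the 30 and siNT the highest at 21, against 25.3% and 25.5% of all genes.

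**Figure D5:**
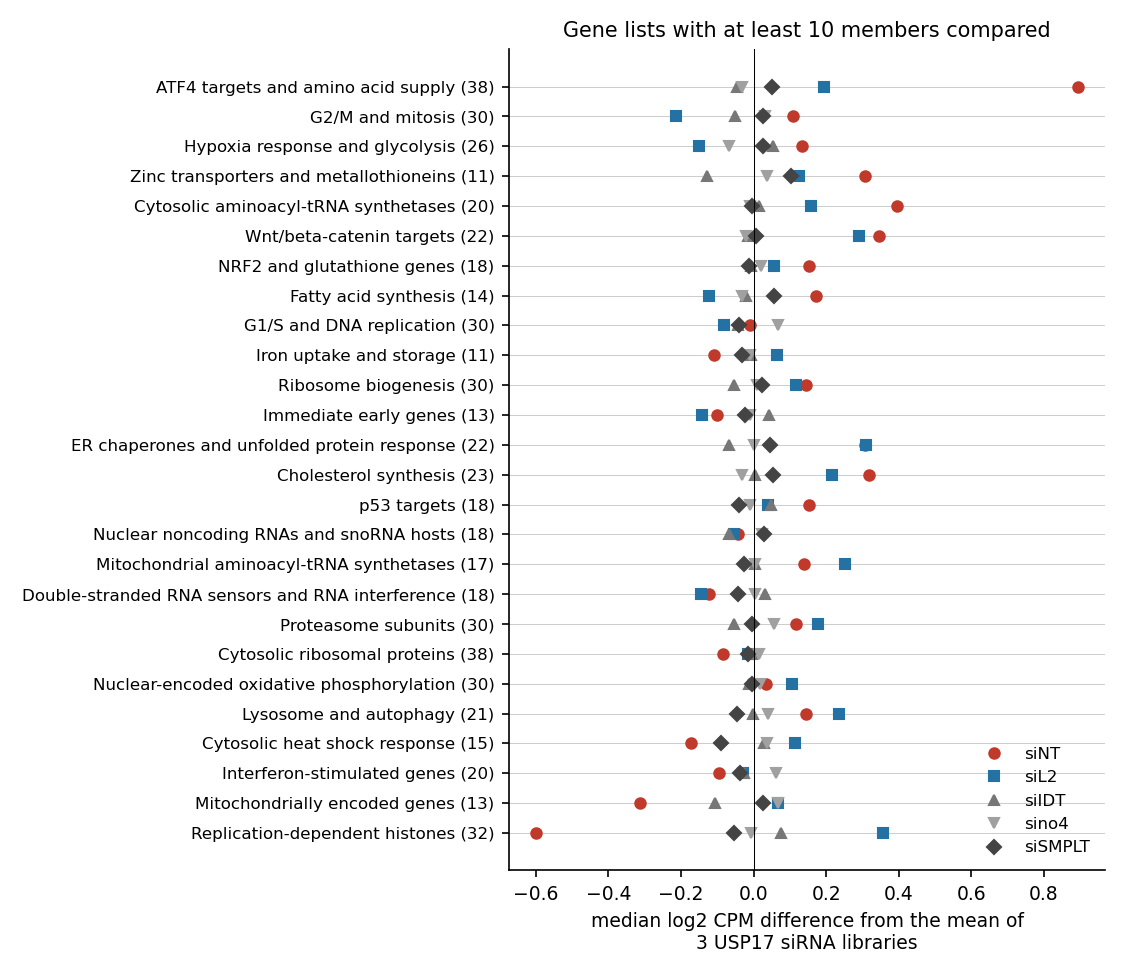
Median over list members of the log2 CPM difference from the mean of the 3 USP17 siRNA libraries, in each of the 5 libraries, for lists with at least 10 members compared (number in brackets), ordered by the median ratio of siNT over siL2. The controls are farthest apart for the histones (-0.60 and 0.36) and the ATF4 list (0.89 and 0.19), and the USP17 siRNA libraries lie between -0.13 and 0.10.

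Metabolic genes showed smaller shifts, beside the 5.76% of all genes compared that were at least 1.5-fold higher in siNT and the 5.26% lower. All 13 mitochondrially encoded messenger RNAs were lower in siNT, with a median of -0.41 and 0 past 1.5-fold. MT-ND2, a subunit of respiratory complex I, had 1071 CPM in siNT, 1554 CPM in siL2 and 1355 to 1414 CPM in the others. The nuclear genes of oxidative phosphorylation had a median of -0.08. Genes of hypoxia and glycolysis were higher in siNT with a median of 0.32, and 1 of 26 passed 1.5-fold. GAPDH, a glycolytic dehydrogenase often used as a reference gene, had 2839 CPM in siNT, 1997 CPM in siL2 and 2525 to 2649 CPM in the others. HIF1A, the oxygen-regulated transcription factor, had 165.8, 114.9 and 188.6 to 207.7 CPM. In both of these genes siL2 was the lowest library.

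The cytosolic heat shock genes, whose products refold proteins, were lower in siNT at 13 of 15 members, with a median of -0.22. Of the 15, 3 were at least 1.5-fold lower, against 5.26% of all genes compared. HSPA1B, an inducible HSP70, had 20.8 CPM in siNT, 39.2 CPM in siL2 and 32.6 to 40.9 CPM in the others. DNAJB1, its co-chaperone, had 40.5, 67.7 and 47.9 to 55.5 CPM. Chaperones of the endoplasmic reticulum, a separate branch of proteostasis, had a median of 0.05. Among them DNAJB11 was low in siL2 alone, at 49.4 CPM against 86.5 CPM in siNT and 83.5 to 87.7 CPM in the others.

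CTNNB1, AXIN2 and MYC were each less than 1.5-fold apart between the controls. CTNNB1, which encodes beta-catenin, had 325.4 CPM in siNT and 355.0 CPM in siL2, a log2 ratio of -0.13, and both controls lay above the 197.6 to 200.4 CPM of the USP17 siRNA libraries. AXIN2, a feedback target of beta-catenin, had 340.8 and 348.5 CPM (-0.03), with 231.3 to 234.3 CPM in the others. MYC had 4203 and 3619 CPM (0.22), with 3223 to 3327 CPM in the others. Wnt targets had a median of 0.17 against -0.001 over all genes, with 16 of 22 compared above 0. Of the 22, 2 were at least 1.5-fold higher in siNT and 0 lower, against 5.76% and 5.26% of all genes compared. These were NOTUM, a secreted Wnt deacylase (39.1 CPM in siNT, 16.4 CPM in siL2, and 18.8 to 21.4 CPM in the others), and PROX1, a transcription factor (5.03, 2.54, and 0.978 to 1.998 CPM). LGR5, an intestinal stem cell receptor, had 13.8 and 9.43 CPM, with 4.65 to 6.90 CPM in the others. For NOTUM, siNT lay above the USP17 siRNA libraries and siL2 below them, so the direction of its difference from that group depends on the control used.

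Some single genes differed strongly outside these groups. GCNT1, a glycosyltransferase of O-glycan branching, had 8.84 CPM in siNT, 2.45 CPM in siL2 and 1.83 to 3.40 CPM in the others. RAB3B, a GTPase of vesicle secretion, had 11.5, 4.70 and 6.97 to 7.65 CPM. On the lower side SMCO1 had 5.11 CPM in siNT and 15.7 CPM in siL2, and both were above the 0.937 to 1.02 CPM of the others. MYH15, a myosin heavy chain, had 3.16 and 9.55 CPM, HOXD1, a homeobox factor, 6.21 and 14.4 CPM, and the kinase BTK 2.77 and 7.79 CPM. TFRC, the transferrin receptor, had 579.7 and 931.4 CPM, with 622.1 to 654.0 CPM in the others, so that siL2 was the high library. Of the 15 largest ratios on the lower side at 5 CPM and above, 8 were histones and 0 of those searched carried the 7-mer; TTC3P1 and H2BC12 had no 3′ UTR to search.

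Many groups differed little between the controls. Of all genes compared, 5.76% were at least 1.5-fold higher in siNT and 5.26% lower. Cytosolic ribosomal proteins had a median log2 ratio of -0.08 with 0 of 38 past 1.5-fold in either direction. Cholesterol synthesis (median 0.04) and ribosome biogenesis (0.08) likewise had 0 members past 1.5-fold. Proteasome subunits had a median of -0.06. Double-stranded RNA sensors and RNA interference genes, which could answer a transfected duplex, had a median of -0.03 with 0 of 18 past 1.5-fold. Interferon-stimulated genes were less even: of 20 compared, 2 were higher and 3 lower at 1.5-fold, few genes to read against the shares of all genes. Their median was -0.28, and 0.07 at a mean of 5 CPM and above. Targets of p53 had a median of 0.04, with 2 of 18 higher and 0 lower, again too few genes to read against those shares. The largest ratio among the p53 targets, 3.30, was at a gene with a mean under 1 CPM. At 1 CPM and above the largest was 1.68, for BBC3 (4.57 CPM in siNT and 2.71 CPM in siL2).

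A further 1166 genes had at least 10 reads in 1 control only and were left out of the comparison. NPIPB3, one of a family of near-identical genes, had 57 reads in siNT and 8 in siL2. In siIDT, sino4 and siSMPLT it had 11, 13 and 54, nearly as wide a spread. BMP8B, a signalling ligand, had 42 and 7 reads in the controls and 15 to 17 in the others. EPHA7, an ephrin receptor, had 4 reads in siNT and 35 in siL2, with 30 to 54 in the others.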

How the data were processed

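Poly(A) RNA from 5 samples of COLO 320DM, extracted with TRIzol and RNeasy columns, was sequenced from KAPA libraries, per the labels. The tools named in the submitters' processing notes are bcl2fastq 2.20, STAR 2.7.1a and RSEM 1.3.2, with GRCh38 as the build. No annotation release or strand setting was found in the labels, and 42023 of the 60651 gene IDs had a symbol. The deposited tables hold whole-number counts per gene, for both strands together and for each strand, and RSEM expected counts and TPM, both of which the authors made with RSEM. The own-strand count, 18.7 to 19.9 times the opposite one, was used; unmapped (2.25% to 2.40%), multi-mapping, unannotated and ambiguous reads were left out.

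Libraries were scaled with TMM in edgeR 4.0.16 (R 4.3.3). Genes needed at least 10 reads in both controls. For departures from the USP17 siRNA range a count below 3 reads was set to 3; 3 reads equal 0.0847 to 0.0937 CPM. Ratios have no prior count, and intervals are exact binomial ones at 95%. With 1 library per siRNA no test was run. Named genes were the 15 with the largest ratio in each direction at a mean of 5 CPM or more, up to 4 per list at 1 CPM or more, a few set by name, and 5 under the read minimum; others were chosen after their values were seen. The members, the 32 lists (722 of 724 genes matched) and the 7-mer were chosen with earlier results of these data known. UTRs came from GENCODE release 29 (the APPRIS principal transcript, then the longest UTR) and promoters from RefSeq (GRCh38.p14). The computation was tested on simulated data, in Python 3.11.15.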

Additional observations from a re-analysis of the deposited data

How the results depend on the processing

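Counts of genes depended on the read minimum and fold and hardly on scaling. With at least 50 reads in both controls, 80 genes were 2-fold higher and 31 lower in siNT, siNT alone stood apart at 45 and siL2 alone at 41, and the SD was 0.293; with at least 1 read these were 1146, 1901, 558, 454 and 0.645, and at a mean of 5 CPM, an alternative chosen after seeing the data, 59, 16, 24, 35 and 0.273. At 1.5-fold they were 891, 813, 380 and 328. With 2-fold outside the range, siNT alone stood apart at 67 and siL2 alone at 52. Low counts, which the read minimum admits or removes, differ more by chance of counting. Without 1 USP17 siRNA library, siNT alone stood apart at 154 to 174 genes and siL2 alone at 124 to 129. DESeq2's size factors (DESeq2 1.42.0), library totals, the rounded RSEM expected counts, counts without regard to strand, a prior count of 2 and leaving out carriers of the 7-mer kept the counts within 1.5 times (181 to 261 higher and 143 to 223 lower with the first 5, and 179 and 183 without carriers). The carriers' difference was 0.217 with at least 1 read and 0.206 to 0.213 under the other alternatives that keep carriers. Of 157 named genes, 2 changed sign, both with RSEM expected counts: PSMA2 from 0.60 to -0.055 and NDUFV2 from 0.46 to -0.17. Both had few own-strand reads, at 1.24 and 1.52 CPM in siNT against 167.2 and 208.4 TPM by RSEM. Among the lists described, the interferon-stimulated genes changed sign at a mean of 5 CPM, and the mitochondrial synthetases, near 0, with counts without regard to strand. The histone median was -0.79 with RSEM expected counts, which include reads that map to several places. No paired analysis was possible because each siRNA has 1 library.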

Other observations

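Gene classes differed in their balance between the controls. Over all genes compared, 5.76% were at least 1.5-fold higher in siNT and 5.26% lower. Of 972 antisense genes compared, 49 were at least 1.5-fold higher in siNT and 146 lower, with a median log2 ratio of -0.13. Of 735 long intergenic noncoding RNAs, 40 were higher and 115 lower (median -0.12), while of 12230 protein-coding genes 693 were higher and 403 lower (median 0.01). On the higher side each class was thus near the share of all genes. On the lower side the noncoding classes were above it and protein-coding genes below it. The noncoding classes are low, at median levels of 1.27 and 1.41 CPM against 34.8 CPM for protein-coding genes. Reads on no gene's strand were 6.37% of all reads in siNT and 6.58% in siL2, and 7.05% to 7.49% in the USP17 siRNA libraries. Whether these shares play a part in the class difference was not tested.

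A second 7-mer, ATCACTC, differed more between the controls and the USP17 siRNA libraries than between the controls. Its 867 carriers differed from other genes by 0.039 in siNT over siL2, by 0.125 in siL2 over the median of the USP17 siRNA libraries and by 0.146 in siNT over that median, which both share. It also differed among the USP17 siRNA libraries, by -0.047 in siIDT and 0.067 in siSMPLT against the other 2, both farther from 0 than the difference between the controls. It was known from earlier results of these data.

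Neuroendocrine markers were higher in siNT at all 5 of the 15 that could be compared. Their median log2 ratio of 0.70 was 0.37 with at least 1 read and 0.40 with at least 50 reads. SYP, a synaptic vesicle protein, had 2.202 CPM in siNT (78 reads), 0.963 CPM in siL2 (33 reads) and 1.18 to 1.65 CPM in the others. CHGB, a granin, had 1.55 (55 reads), 0.759 (26 reads) and 0.968 to 1.19 CPM. INSM1, SCGN and DDC had 0 reads in all 5 libraries, and UCHL1 was close between the controls at 604.9 and 565.7 CPM.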
